A study of Rattus norvegicus with 9 samples.

Results

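Carnosine, taurine and the polyamines are small nitrogen-containing molecules of neurons and glia, and 10 genes of their metabolism were followed in the rat dorsal root ganglion (DRG), which holds the cell bodies of sensory neurons. The genes were taken by symbol from the deposited gene table, and all 10 were present among its 20194 genes. They are Carns1, Cndp1 and Cndp2 of carnosine turnover, Csad and Slc6a6 of taurine supply, and Arg1, Odc1, Srm, Smox and Sat1 of the route from arginine to the polyamines and back. Their NCBI gene IDs in the table are 309150 (Carns1), 307212 (Cndp1), 291394 (Cndp2), 60356 (Csad), 29464 (Slc6a6), 29221 (Arg1), 24609 (Odc1), 84596 (Srm), 308652 (Smox) and 302642 (Sat1). The DRG of 3 groups of male Sprague Dawley rats were compared, with 3 libraries in each group. The sham group had no spared nerve injury (SNI), a model of neuropathic pain in which branches of the sciatic nerve are cut and a branch is left intact. The SNI group had the injury, and the SNI + G15 group had the injury and G15, an antagonist of the G protein-coupled oestrogen receptor GPER. Per the labels, intrathecal catheters were placed on SNI day 5, and drugs were given through them for 24 h in 2% DMSO. These entries are the same for all libraries, and the titles of the sham and SNI libraries name them as G15 controls. The labels do not state separately whether sham and SNI rats received the vehicle. It is therefore not certain that SNI + G15 and SNI differed in G15 alone. Whether each library came from a single rat is not clear from the sources. The titles of the SNI + G15 libraries all carry the same SNI number, whereas the SNI libraries are numbered separately. What that shared number stands for is not stated. The p-values therefore set differences against the spread between these libraries, which may not be the spread between rats.

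Carnosine is a dipeptide of β-alanine and histidine. Carns1 encodes the synthase that joins them, Cndp1 encodes a carnosinase that splits carnosine, and Cndp2 encodes a cytosolic dipeptidase of broader specificity. Taurine is made from cysteine through hypotaurine; Csad encodes the decarboxylase of that route, and Slc6a6 encodes the taurine transporter, which also carries β-alanine. Arginase, encoded by Arg1, converts arginine to ornithine, from which ornithine decarboxylase (Odc1) makes putrescine. Spermidine synthase (Srm) turns putrescine into spermidine. Spermine oxidase (Smox) converts spermine back to spermidine, and spermidine/spermine acetyltransferase (Sat1) tags polyamines for export or oxidation. β-Alanine, a building block of carnosine, is also known to activate a receptor of itch and pain neurons.

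The estimated reads of a library summed to between 18484557 and 18756736, so depth was alike. The tissue label was checked against 14 neuron markers, all of which were tested, and their FPKM (fragments per kilobase of transcript, scaled to library size) summed to 1.74e+04 to 1.78e+04 in sham, while SNI had 1.53e+04 to 1.57e+04 and SNI + G15 had 1.54e+04 to 1.63e+04. SNI + G15 replicate 3 stood furthest from the other libraries of its group, with a mean chi-square per gene of 9.24 and 8.93 against 3.29 between replicates 1 and 2. In bulk tissue, a lower value can come from fewer cells of a type or from less RNA per cell, which cannot be told apart. Across the 9 libraries, the mean level on the FPKM scale was highest for Sat1 (65.1) and Cndp2 (56.9), followed by Odc1 (30.0), Smox (17.9), Srm (17.1), Csad (12.3), Carns1 (7.66), Arg1 (6.99), Cndp1 (4.57) and Slc6a6 (3.30).

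Between SNI and sham, Arg1 and Slc6a6 were higher in SNI, while Csad, Carns1 and Sat1 were lower. These were 5 of the 10 genes with an adjusted p under 0.05 by the quasi-likelihood test of edgeR, a share close to the 45.7% of all 14305 tested genes that were called. Between SNI + G15 and SNI, Sat1, Cndp1, Smox and Slc6a6 were higher in SNI + G15, while Srm and Arg1 were lower. These were 4 genes higher and 2 lower, 6 of 10 in all, where 15.2% of all tested genes were called, 7.98% as higher and 7.25% as lower. The 10 genes were chosen with earlier results of these data known, so the count does not measure an excess over that share. The count fell to 3 without SNI replicate 1, when 7.68% of all tested genes were called, and to 3 without SNI replicate 2, when 6.47% were. The Srm call was not retained when its shared reads were pooled, as described with that gene, which left 5 of 10. Between SNI + G15 and sham, Arg1, Cndp1, Slc6a6, Smox and Sat1 were higher and Csad was lower, which were 6 of 10 genes beside 43.2% of all tested genes. The median log2 fold change of the 10 genes was 0.085, 0.13 and 0.22 in the 3 comparisons in that order, and that of all tested genes was 0.001, 0.0063 and -0.0037. The comparisons share groups of libraries, so their values are given side by side and are not independent. The FPKM of the groups did not overlap for 8, 5 and 8 of the 10 genes, respectively, beside 53.9%, 38.3% and 52.9% of all tested genes.

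**Figure D1:**
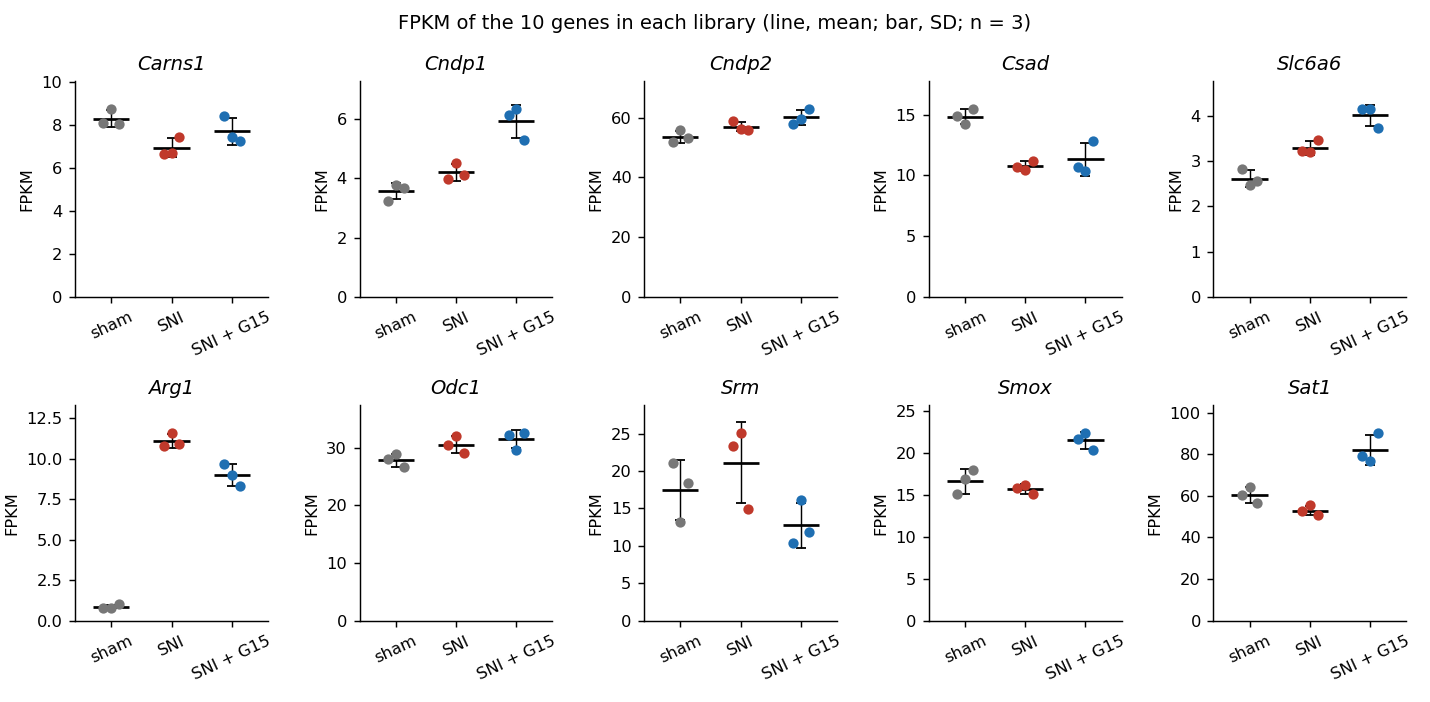
FPKM (vertical axes, linear, from 0) of each of the 10 genes in the 3 sham, 3 SNI and 3 SNI + G15 libraries, shown as points, with the group mean as a line and the SD as a bar. Arg1 lay at or below 1.0 in sham and at or above 8.35 in the injured groups, Csad was lower in both injured groups, and Sat1, Smox, Cndp1 and Slc6a6 were highest in SNI + G15.

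**Figure D2:**
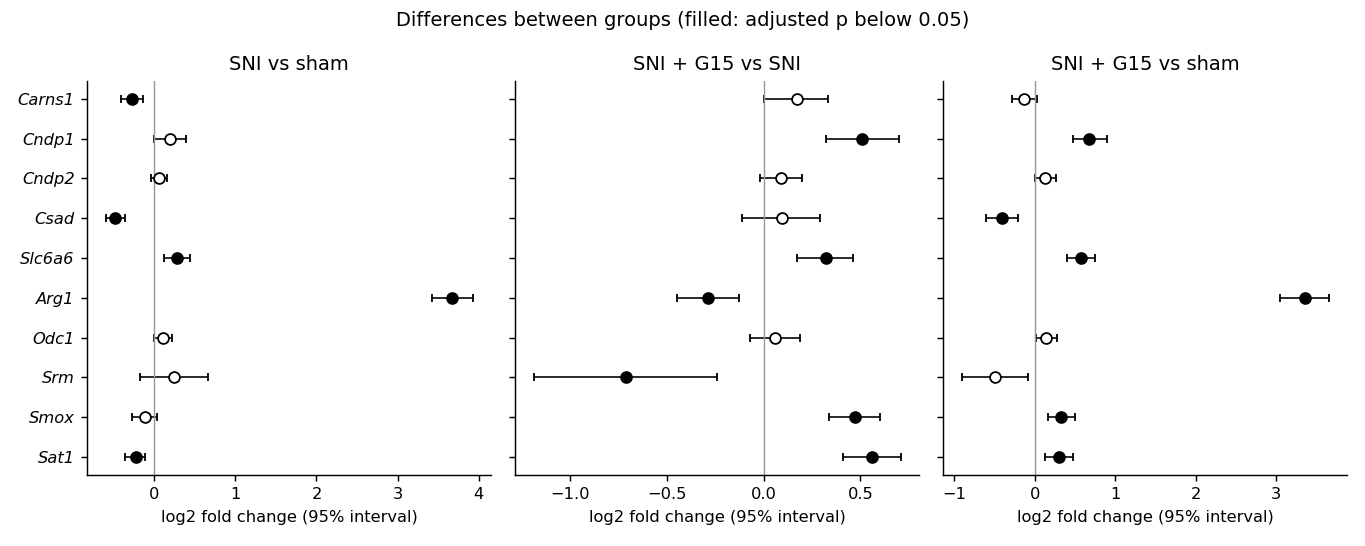
Log2 fold change of each gene (horizontal axes) in the 3 comparisons, from the quasi-likelihood fit of edgeR, with 95% intervals; filled points had an adjusted p under 0.05. Arg1 stood at 3.67 in SNI against sham, and at 3.36 in SNI + G15 against sham, while the changes of the other 9 genes lay between -0.71 and 0.68.

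Promoter sequence was read for the genes that were higher in SNI + G15 than in SNI, to show whether they share simple motifs, and for Srm, whose reads were divided with another gene. The RefSeq table of the rat assembly GRCr8 had a window for 9 of the 10 genes, from 250 bases before to 50 bases after the start. The gene without a window was Arg1, so its promoter was not searched. The 250 bases before the start are printed 5′ to 3′ on the strand of the gene, with capitals for matches to 6 short motifs searched on both strands, which are spelled out after the sequences.
Sat1, chrX:44007839-44008088, plus strand: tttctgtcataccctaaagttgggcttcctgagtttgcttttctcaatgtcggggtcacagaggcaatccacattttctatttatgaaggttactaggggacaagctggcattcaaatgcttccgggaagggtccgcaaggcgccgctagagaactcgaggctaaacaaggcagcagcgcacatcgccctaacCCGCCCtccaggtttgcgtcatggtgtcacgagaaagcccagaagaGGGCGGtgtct
Smox, chr3:139204351-139204600, plus strand: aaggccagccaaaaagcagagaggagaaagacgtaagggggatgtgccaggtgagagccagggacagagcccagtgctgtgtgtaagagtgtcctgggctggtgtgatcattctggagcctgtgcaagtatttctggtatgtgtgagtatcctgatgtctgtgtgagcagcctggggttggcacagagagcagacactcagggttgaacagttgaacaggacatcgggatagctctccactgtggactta
Cndp1, chr18:80282644-80282893, minus strand: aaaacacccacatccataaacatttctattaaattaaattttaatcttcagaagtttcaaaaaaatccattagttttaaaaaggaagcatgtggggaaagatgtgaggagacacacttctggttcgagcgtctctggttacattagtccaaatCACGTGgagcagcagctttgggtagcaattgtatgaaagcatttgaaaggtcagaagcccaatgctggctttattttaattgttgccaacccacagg
Slc6a6, chr4:125752252-125752501, plus strand: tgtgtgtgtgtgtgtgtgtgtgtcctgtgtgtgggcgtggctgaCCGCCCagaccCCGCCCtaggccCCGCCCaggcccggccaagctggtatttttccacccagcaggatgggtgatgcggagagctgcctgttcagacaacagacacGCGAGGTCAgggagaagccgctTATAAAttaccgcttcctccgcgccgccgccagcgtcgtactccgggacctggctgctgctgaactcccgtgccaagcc
Srm, chr5:164308752-164309001, plus strand: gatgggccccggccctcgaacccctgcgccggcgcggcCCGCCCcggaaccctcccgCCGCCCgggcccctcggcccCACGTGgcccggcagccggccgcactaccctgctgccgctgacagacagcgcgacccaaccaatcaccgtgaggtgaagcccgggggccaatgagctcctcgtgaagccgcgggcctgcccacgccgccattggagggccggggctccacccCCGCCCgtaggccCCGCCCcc

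None of the 6 motifs was present in all 4 windows of the genes higher with G15. The GC box, GGGCGG, stood 3 times in the Sat1 window of 300 bases, 3 times in that of Slc6a6 and 5 times in that of Srm, and 33.1% of all 33469 promoter windows held it. The E-box CACGTG, the sequence bound by Myc family factors among others, stood once in the windows of Cndp1 and Srm and in 6.42% of all windows. The window of Slc6a6 also held 1 TATA box, searched as TATAAA and present in 14.2% of all windows. It held as well 1 core of the antioxidant response element, TGACNNNGC, which 12.1% of all windows held and which did not overlap the TATA box. No match to any of the 6 was found in the Smox window, and the AP-1 site, TGACTCA, was in none of the windows of the 9 genes and in 4.63% of all windows. The cyclic AMP response element, TGACGTCA, was likewise in none of the 9 and in 1.83% of all windows. These are matches of letters and not measured sites.

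Of the carnosine genes, the synthase Carns1 was lower in SNI than in sham, and the carnosinase Cndp1 was higher in SNI + G15 than in either other group. Carns1 had FPKM values of 8.09, 8.75 and 8.06 in sham replicates 1 to 3, 6.67, 6.71 and 7.47 in SNI, and 8.43, 7.47 and 7.26 in SNI + G15. All SNI values lay below all sham values, and the SNI + G15 values overlapped both other groups. The log2 fold change was -0.27 in SNI against sham (SE, the standard error, 0.061, adjusted p = 0.00427, quasi-likelihood test of edgeR), and it was 0.17 in SNI + G15 against SNI (95% interval 0.00 to 0.33, adjusted p = 0.152, the same test).

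Cndp1, the carnosinase, had FPKM values of 3.25, 3.78 and 3.69 in sham, 3.97, 4.51 and 4.13 in SNI, and 6.14, 6.34 and 5.30 in SNI + G15. The 3 groups did not overlap, in the order sham, SNI, SNI + G15, and the step from sham to SNI did not pass the test over all genes (log2 fold change 0.20, adjusted p = 0.0896, quasi-likelihood test of edgeR). SNI + G15 was 1.42-fold above SNI (log2 fold change 0.51, SE 0.085, adjusted p = 0.00548) and 1.61-fold above sham (0.68, SE 0.095, adjusted p = 0.000278). Cndp1 kept these calls in all 16 alternatives of each comparison, with log2 fold changes of 0.41 to 0.58 against SNI. The estimated counts behind the values were low, between 161 and 311 reads in a library.

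Cndp2, the cytosolic dipeptidase, was far more abundant and moved little. Its FPKM values were 51.88, 55.77 and 53.14 in sham, 58.85, 56.31 and 56.02 in SNI, and 57.92, 59.63 and 62.88 in SNI + G15. No comparison passed the test, with log2 fold changes of 0.062, 0.091 and 0.13 and adjusted p-values of 0.286, 0.238 and 0.0957 for SNI against sham, SNI + G15 against SNI and SNI + G15 against sham. The last of these was called in 4 of the 16 alternatives. The level of Cndp1 relative to Cndp2 on the FPKM scale was 0.0626, 0.0678 and 0.0694 in sham, 0.0675, 0.0801 and 0.0737 in SNI, and 0.106, 0.106 and 0.0843 in SNI + G15. The SNI + G15 ratios lay above all others (log2 difference 0.42 from SNI, exact permutation p = 0.1, adjusted p = 0.129 over 9 relations), and 0.1 is the smallest p that 3 libraries against 3 allow. Most Cndp2 FPKM came from the transcript NM_001010920.1, at 45.6 ± 0.87 in sham, 45.9 ± 0.27 in SNI and 45.5 ± 2.8 in SNI + G15 (SD, n = 3). The other transcript, XM_006254999.3, had 7.96 ± 2.8, 11.1 ± 1.4 and 14.7 ± 1.9. Its share of the gene was 10.2%, 19.5% and 14.4% in sham and 27.2%, 21.0% and 25.1% in SNI + G15, without overlap (exact permutation p = 0.1, adjusted p = 0.531 over 69 shares).

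The taurine genes Csad and Slc6a6 went in opposite directions after injury. Csad, the decarboxylase on the route to taurine, had FPKM values of 14.89, 14.21 and 15.46 in sham, 10.70, 10.45 and 11.22 in SNI, and 10.70, 10.38 and 12.87 in SNI + G15. All sham values lay above all values of the injured groups, and SNI and SNI + G15 overlapped. Csad was 1.40-fold lower in SNI than in sham (log2 fold change -0.48, SE 0.054, adjusted p = 3.67e-05, quasi-likelihood test of edgeR) and 1.33-fold lower in SNI + G15 than in sham (-0.41, adjusted p = 0.00485). Between SNI + G15 and SNI the log2 fold change was 0.094 (95% interval -0.11 to 0.29, adjusted p = 0.491), and it was -0.017 without SNI + G15 replicate 3.

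The summed markers of neurons and of Schwann cells were lower in both injured groups along with Csad, and along with Carns1 in SNI. Of the 14 neuron markers, 8 were called lower and 3 higher in SNI than in sham, with a median log2 fold change of -0.37. Of all tested genes, 22.4% were called lower and 23.3% higher in that comparison. The largest parts of the neuron sum went both ways. Nefl, Nefm and Nefh averaged 3690, 2330 and 2180 FPKM in sham and 2200, 1500 and 1410 in SNI. Tubb3, Prph and Stmn2 averaged 2300, 1340 and 1180 in sham and 2990, 1660 and 1600 in SNI. The lower sum is thus not a measure of neuron number. Nefm, the medium neurofilament chain, stood at -0.67 (adjusted p = 2.48e-08, quasi-likelihood test of edgeR). Of the 9 Schwann cell markers, 7 were lower and none was higher (median -0.73). The part of these cells in the values of Csad and Carns1 was not tested.

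Slc6a6, the taurine transporter, had FPKM values of 2.82, 2.46 and 2.55 in sham, 3.21, 3.20 and 3.47 in SNI, and 4.14, 4.14 and 3.73 in SNI + G15. The 3 groups rose in that order and did not overlap. The log2 fold change was 0.28 in SNI against sham (SE 0.071, adjusted p = 0.0082, quasi-likelihood test of edgeR), 0.32 in SNI + G15 against SNI (SE 0.063, adjusted p = 0.0119) and 0.57 in SNI + G15 against sham (SE 0.078, adjusted p = 0.000245). The middle comparison lost its call without SNI replicate 1 (0.31, adjusted p = 0.0521) and without SNI replicate 2 (0.30, adjusted p = 0.0624), and in limma-trend on the FPKM values (adjusted p = 0.0587 and 0.0613 with 0.1 and 1 added). The estimated counts of Slc6a6 were not whole in 9 of 9 libraries and those of Csad in 8 of 9, which arises where reads are divided between features. No other gene completed them to whole numbers within 0.02 reads among the 7664 searched, so the features they share reads with are not known here.

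Arg1, cytosolic arginase, showed the largest difference of the 10 genes. Its FPKM was 0.79, 0.75 and 1.0 in sham, 10.81, 11.61 and 10.95 in SNI, and 9.69, 8.99 and 8.35 in SNI + G15. Sham lay far below both injured groups, and all SNI + G15 values lay below all SNI values. In sham only replicate 3 reached the FPKM minimum of 1 that a gene needed in any library to be tested. Arg1 was 12.8-fold higher in SNI than in sham (log2 fold change 3.67, SE 0.11, adjusted p = 2.43e-09, quasi-likelihood test of edgeR) and 10.3-fold higher in SNI + G15 than in sham (3.36, SE 0.14, adjusted p = 8.72e-08). It was 1.22-fold lower in SNI + G15 than in SNI (-0.29, SE 0.070, adjusted p = 0.0271), and 10 of 16 alternatives kept this last call. It was not kept when SNI replicate 1 (adjusted p = 0.0639), 2 (0.105) or 3 (0.0793) was left out, when SNI + G15 replicate 2 was left out (0.0671), with the replicate number as a block (0.0636), or by DESeq2 (0.11).

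Arg2, the mitochondrial arginase, did not follow Arg1. Its FPKM was 13.02, 13.28 and 12.25 in sham, 13.21, 12.27 and 12.60 in SNI, and 11.99, 11.83 and 11.24 in SNI + G15. The log2 fold change in SNI against sham was -0.047 (95% interval -0.19 to 0.09, adjusted p = 0.572, quasi-likelihood test of edgeR). The ratio of Arg1 to Arg2 on the FPKM scale was 0.0607, 0.0565 and 0.0816 in sham, 0.818, 0.946 and 0.869 in SNI, and 0.808, 0.760 and 0.743 in SNI + G15. Arg1 thus stood well below Arg2 in sham and close to it in both injured groups (log2 difference 3.74 from sham to SNI, exact permutation p = 0.1, adjusted p = 0.129 over 9 relations).

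The summed markers of leukocytes were higher, like Arg1, in both injured groups than in sham. Their sums were not lower in SNI + G15 than in SNI, while erythroid markers, like Arg1, were. The FPKM of 12 macrophage markers summed to a range of 183 to 201 in sham, while SNI had 405 to 416 and SNI + G15 had 424 to 460, and 11 of the 12 were called higher in SNI than in sham with a median log2 fold change of 1.2. With G15, 2 of the 12 were higher and 1 was lower than in SNI. Of all tested genes, 23.3% were called higher in SNI than in sham. In SNI + G15 against SNI, 7.98% were called higher and 7.25% lower. C1qa, C1qb and C1qc made up the largest parts of the macrophage sum, at means of 96.5, 88.3 and 106 in SNI. Genes of the list went both ways with G15. Ptprc averaged 3.49 in SNI and 2.58 in SNI + G15, and Cx3cr1 8.52 and 6.79. Cd163 averaged 3.04 and 4.11, and Mrc1 4.26 and 5.23. The 8 neutrophil markers summed to 140 to 168, 219 to 257 and 233 to 277, with 5 of 7 tested genes higher in SNI than in sham, and Ltf was listed at 0 in every sham and SNI + G15 library. S100a9 and S100a8 made up most of that sum, at means of 128 and 71.9 in SNI. The 7 genes of the injured neuron list, which includes Atf3 and Sprr1a, summed to 200 to 215 in sham and at least 1620 in the injured groups, and all 7 were higher in SNI. All 7 tested erythroid markers were called higher in SNI than in sham, and all 7 were called lower in SNI + G15 than in SNI. The part of these cells in the Arg1 values was not tested. The 5 liver markers, chosen because arginase is abundant in liver, summed to at most 3.79 in any library.

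Odc1, which makes putrescine and is the usual rate-limiting step of polyamine synthesis, changed little. Its FPKM was 28.03, 28.86 and 26.65 in sham, 30.54, 32.13 and 29.08 in SNI, and 32.16, 29.69 and 32.61 in SNI + G15. Sham lay below both injured groups, which overlapped each other. The log2 fold changes were 0.11 in SNI against sham (95% interval -0.00, just negative, to 0.22, adjusted p = 0.107, quasi-likelihood test of edgeR), 0.058 in SNI + G15 against SNI (adjusted p = 0.521) and 0.14 in SNI + G15 against sham (adjusted p = 0.079). The last was called in 5 of the 16 alternatives, with log2 fold changes of up to 0.19 and adjusted p-values down to 0.0318, and the first in 1, with library totals in place of TMM scaling (0.14, adjusted p = 0.0498).

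Srm, spermidine synthase, had scattered values, with an FPKM of 21.02, 13.13 and 18.37 in sham, 23.37, 25.10 and 14.91 in SNI, and 10.34, 16.14 and 11.78 in SNI + G15. The groups overlapped in every comparison. The log2 fold change in SNI + G15 against SNI was -0.71 (SE 0.21, adjusted p = 0.05 after rounding, just under the threshold, quasi-likelihood test of edgeR). It was 0.24 in SNI against sham (adjusted p = 0.324) and -0.49 in SNI + G15 against sham (adjusted p = 0.0556). The call against SNI was kept in 7 of 16 alternatives, and it was not kept when SNI replicate 1 (adjusted p = 0.142) or 2 (0.167) was left out, nor when SNI + G15 replicate 1 (0.114) or 3 (0.0792) was left out. The comparison with sham was called without sham replicate 2 (-0.67, adjusted p = 0.0115) and without SNI + G15 replicate 2 (-0.69, adjusted p = 0.0106), as well as by DESeq2 (-0.49, adjusted p = 0.0128), and that of SNI with sham was called without SNI replicate 3 (0.44, adjusted p = 0.0351).

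The estimated counts of Srm were not whole in any of the 9 libraries, and a search of 7664 genes with such counts found 1 gene, LOC100912604, whose counts added to those of Srm gave a whole number within 0.02 in every library. Reads were thus divided between the 2 genes, and the division varied between replicates. Srm held 79.8%, 39.3% and 62.7% of the joint reads in sham, 56.5%, 70.3% and 39.0% in SNI, and 28.2%, 40.7% and 28.0% in SNI + G15. The joint count was 601, 770 and 674 in sham, 950, 821 and 876 in SNI, and 838, 905 and 975 in SNI + G15. On this joint count, sham lay below all injured libraries, and SNI and SNI + G15 overlapped.

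When the 2 genes were summed and all genes refitted, an alternative chosen after seeing the data, the joint value was higher in SNI than in sham (log2 fold change 0.34, SE 0.086, adjusted p = 0.00791, quasi-likelihood test of edgeR) and higher in SNI + G15 than in sham (0.37, SE 0.094, adjusted p = 0.00958). These calls were kept without each replicate in turn, with adjusted p-values up to 0.0362 and 0.0382. Between SNI + G15 and SNI the joint log2 fold change was 0.051 (95% interval -0.12 to 0.22, adjusted p = 0.677). The lower Srm value with G15 thus had a counterpart in LOC100912604, which alone was at 0.64 in the same comparison (SE 0.23, adjusted p = 0.0903). With the sum, 6, 5 and 7 of the 10 genes were called in SNI against sham, SNI + G15 against SNI and SNI + G15 against sham. The shares of all tested genes called in that refit were 45.7%, 15.2% and 43.3%, in the same order. The identifier LOC100912604 is not in the RefSeq table used here, so what it represents is not stated.

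**Figure D3:**
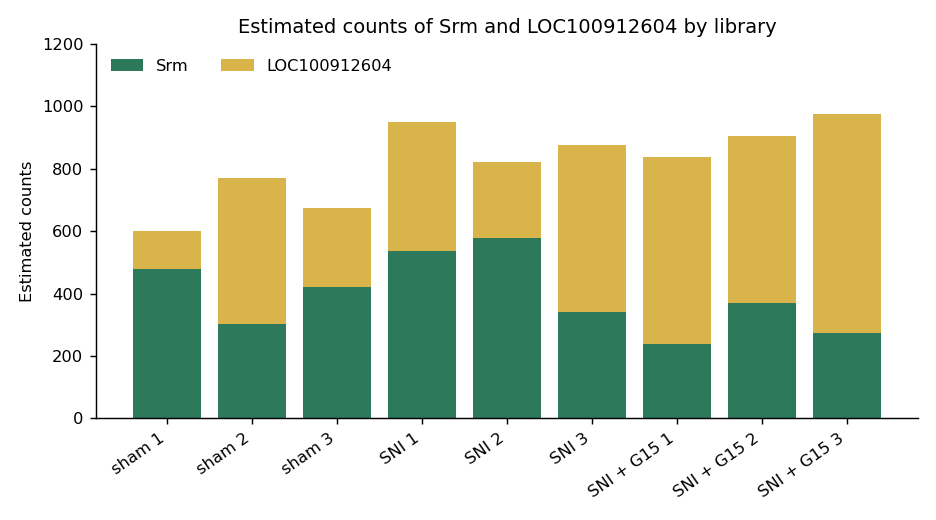
Stacked bars of the estimated counts (vertical axis, linear, from 0) of Srm and LOC100912604 in each of the 9 libraries. The Srm part varied from 28.0% to 79.8% of the bar, while the whole bar ran from 601 to 770 in sham and from 821 to 975 in the injured groups.

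Smox and Sat1, of polyamine breakdown, were both higher in SNI + G15. Smox, spermine oxidase, had FPKM values of 15.01, 16.85 and 17.91 in sham, 15.74, 16.18 and 15.03 in SNI, and 21.64, 22.34 and 20.33 in SNI + G15. All SNI + G15 values lay above all others, and sham and SNI overlapped. The log2 fold change was 0.47 in SNI + G15 against SNI (SE 0.056, adjusted p = 0.00107, quasi-likelihood test of edgeR) and 0.33 in SNI + G15 against sham (SE 0.076, adjusted p = 0.00596). In SNI against sham it was -0.12 (adjusted p = 0.183), and -0.18 without sham replicate 1 (adjusted p = 0.0281). The ratio of Smox to Srm on the FPKM scale was 0.714, 1.28 and 0.975 in sham, 0.674, 0.645 and 1.01 in SNI, and 2.09, 1.38 and 1.73 in SNI + G15. With LOC100912604 added to Srm it was 0.571, 0.505 and 0.612, then 0.381, 0.454 and 0.394, then 0.593, 0.565 and 0.485, so that SNI lay below both other groups. The log2 difference between SNI + G15 and SNI was 1.17 without and 0.42 with the added gene (exact permutation p = 0.1 for each), and that between SNI + G15 and sham was 0.83 without (exact permutation p = 0.1) and -0.039 with it (exact permutation p = 0.6).

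Sat1, the acetyltransferase, had FPKM values of 60.42, 64.24 and 56.37 in sham, 52.57, 55.45 and 50.77 in SNI, and 79.15, 76.70 and 90.25 in SNI + G15. The 3 groups did not overlap, with SNI lowest and SNI + G15 highest. The log2 fold change was -0.23 in SNI against sham (SE 0.057, adjusted p = 0.0066, quasi-likelihood test of edgeR), 0.56 in SNI + G15 against SNI (SE 0.066, adjusted p = 0.00107) and 0.30 in SNI + G15 against sham (SE 0.076, adjusted p = 0.0098). All 3 calls were kept in the 16 alternatives of each comparison.

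The Sat1 reads were assigned to 3 transcripts above 0.5 FPKM. NM_001007667.2 had an FPKM of 30.1 ± 1.2 in sham, 28.2 ± 1.3 in SNI and 51.5 ± 3.8 in SNI + G15 (SD, n = 3). XM_008773228.2 had 26.7 ± 2.6, 22.5 ± 0.82 and 27.2 ± 2.0, and XM_008773230.2 had 3.59 ± 1.1, 2.14 ± 0.37 and 3.27 ± 2.6. Most of the difference between SNI + G15 and SNI thus stood in NM_001007667.2. Its share of the gene was 50.4%, 48.3% and 50.9% in sham, 52.8%, 53.5% and 53.8% in SNI, and 61.1%, 65.7% and 61.8% in SNI + G15, without overlap between any 2 groups. The share was 9.51 percentage points higher in SNI + G15 than in SNI (exact permutation p = 0.1, adjusted p = 0.531 over 69 shares). Over the 7 genes with more than 1 transcript above that level, 13 of the 69 shares and comparisons had no overlap and none could pass the adjusted test at this number of libraries. Shares within a gene depend on each other, as 1 rises where another falls, so 1 shift can count more than once. The same count was not made over all transcripts, so whether 13 is many cannot be said. Transcript values are estimates that divide shared reads, and Carns1 transcript XM_017590280.1, for example, held 48.9% of the gene in sham replicate 1 and 0% in replicate 2.

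**Figure D4:**
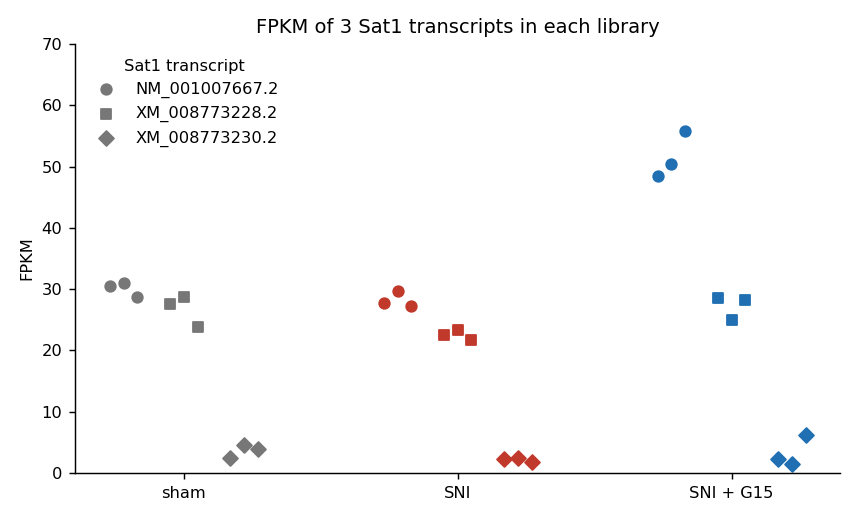
FPKM (vertical axis, linear, from 0) of 3 Sat1 transcripts in each library of the sham, SNI and SNI + G15 groups; circles, squares and diamonds are the transcripts named in the key. NM_001007667.2 averaged 51.5 in SNI + G15 against 28.2 in SNI, whereas XM_008773228.2 averaged 27.2 and 22.5.

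Fibroblast and Schwann cell markers were mostly higher in SNI + G15 than in SNI, as Sat1, Smox, Cndp1 and Slc6a6 were. Erythroid markers were lower, and endothelial and satellite glia markers were mixed. In SNI against sham, 4 of the 8 fibroblast markers were called higher and 2 lower. Of all tested genes, 23.3% were called higher and 22.4% lower in that comparison. In SNI + G15 against SNI, 7.98% of all tested genes were called higher and 7.25% lower. The FPKM of 8 fibroblast markers summed to a range of 482 to 491 in sham, while SNI had 474 to 475 and SNI + G15 had 639 to 663, and 7 of the 8 were called higher in SNI + G15 than in SNI. The 7 endothelial markers summed to 60.7 to 66.0, 61.5 to 63.5 and 76.8 to 84.0, with 2 higher and 1 lower in SNI + G15 than in SNI. Among them Cldn5, of tight junctions, averaged 37.8 in SNI + G15 and 24.5 in SNI, and Kdr, a VEGF receptor, averaged 2.53 and 3.07. Schwann cell markers, 9 in all, summed to at least 5390 in sham, with SNI at 3020 to 3080 and SNI + G15 at 3240 to 3380. Of these, 6 of 9 were higher in SNI + G15 than in SNI and none was lower. The 7 erythroid markers in the table summed to 447 to 526, 1420 to 1470 and 846 to 1000, and all 7 were called lower in SNI + G15 than in SNI. The 8 satellite glia markers summed to 4150 to 4520, 3960 to 4150 and 4220 to 5160, a sum that was mostly Apoe. In SNI + G15 relative to SNI, 2 of them were higher, Glul (0.40) and Cdh19 (0.25), and 2 were lower, Kcnj10 (-0.37) and Sparcl1 (-0.19). Skeletal muscle markers, chosen because muscle is rich in carnosine, summed to between 11.5 and 14.3 in every group, and 4 of 10 were tested. The part of these cells in the values of Sat1, Smox, Cndp1 and Slc6a6 was not tested.

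The genes whose level ran most like each of the 10 over the 9 libraries, by Pearson's r of log2(FPKM + 0.1), are given as a description, since the libraries share the 3 groups. For Sat1 they were Zfp637 (0.989) and Dcn (0.978), the latter the matrix proteoglycan decorin and 1 of the fibroblast markers. Those of Smox were Ctsk (0.977), which encodes the protease cathepsin K, and Tmem270 (0.976). For Slc6a6 they were Arap3 (0.985) and Prg4 (0.983), which encodes lubricin, and for Cndp1 they were Sertad1 (0.983) and Dap (0.980). Csad ran most like Map7d2 (0.984) and Nefm (0.981). Arg1 ran most like Tgm1 (0.998), a transglutaminase, and Tnik (0.998), a kinase. Carns1 went with Tp53rk (0.946) and March9 (0.939), Cndp2 with Rps10 (0.983) and Ddah2 (0.981), Odc1 with Tardbp (0.973) and Ist1 (0.969), and Srm with Tpd52 (0.902) and Snorc (0.897).

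Around the 10 genes, 4 lists of neighbouring metabolism were examined. Of the carnosine and β-alanine list, 21 of 30 genes were tested, and 3 were higher and 7 lower in SNI than in sham (median log2 fold change -0.14). These 10 of 21, and the counts of the other lists, stand beside the 45.7% of all tested genes called in that comparison, 15.2% in SNI + G15 against SNI and 43.2% in SNI + G15 against sham. Slc36a2, an amino acid transporter, was lower at -0.74 (SE 0.073, adjusted p = 1.52e-05, quasi-likelihood test of edgeR), with Abat, the transaminase that breaks down GABA and β-alanine, at -0.40 (adjusted p = 6.67e-05), Aldh6a1 at -0.38 and Aldh2 at -0.24. The oligopeptide transporters Slc15a3 (0.53) and Slc15a4 (0.25) and the dehydrogenase Aldh7a1 (0.27) were higher. The counts of Slc15a3 were completed to whole numbers by those of Tmem132a, and Slc15a3 held 7.32% to 10.6% of the sum. That joint count was 1241, 1292 and 1373 in sham and 1480, 1546 and 1561 in SNI. In SNI + G15 relative to SNI, 1 gene of this list was higher, Aldh2 at 0.35 (adjusted p = 0.0011), and 2 were lower, Slc36a1 at -0.41 (adjusted p = 0.0142) and Ehhadh at -0.47 (adjusted p = 0.0209). Against sham, 2 were higher and 8 lower in SNI + G15, among them Abat at -0.68 and Slc36a1 at -0.67. Gad1 and Gad2, the glutamate decarboxylases, were below the filter.

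Of the taurine list, 16 of 18 genes were tested, and 1 was higher and 4 lower in SNI than in sham (median -0.038). Ggt5, a γ-glutamyltransferase that acts on glutathione conjugates, had FPKM values of 16.64, 17.85 and 18.44 in sham, 37.81, 37.69 and 40.28 in SNI, and 40.28, 40.88 and 43.20 in SNI + G15 (log2 fold change 1.10 in SNI against sham, SE 0.058, adjusted p = 1.41e-07, quasi-likelihood test of edgeR). Slc6a13, a GABA and taurine transporter of the same family as Slc6a6, had 6.97, 8.01 and 7.43 in sham, 2.93, 2.69 and 2.80 in SNI, and 3.40, 3.65 and 2.56 in SNI + G15 (-1.42, SE 0.079, adjusted p = 2.22e-07). Its counts were completed to whole numbers by those of Slc6a12; Slc6a13 held 84.9% to 94.9% of the sum, and the joint count was 316, 339 and 333 in sham and 133, 122 and 126 in SNI. The Slc6a family members thus differed in direction after injury. Cbs (-0.85), Got1 (-0.22) and Slc36a1 (-0.24) were also lower in SNI. With G15, relative to SNI, Cth was higher (0.47, adjusted p = 0.0405), and Cdo1, the dioxygenase that makes the substrate of Csad, was lower (-0.33, adjusted p = 0.00719), as were Slc36a1 and Lrrc8d (-0.18). Against sham, 3 were higher and 6 lower in SNI + G15, with Ggt1 at 1.33 (adjusted p = 0.0125) and Cbs at -1.21 (adjusted p = 0.00042).

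Of the polyamine list, 23 of 27 genes were tested, and 2 were higher and 5 lower in SNI than in sham (median -0.0095). Azin2, an antizyme inhibitor that protects ornithine decarboxylase, had FPKM values of 14.88, 17.25 and 15.06 in sham, 29.62, 29.73 and 29.63 in SNI, and 28.76, 30.32 and 30.55 in SNI + G15. Both injured groups lay above sham (log2 fold change 0.88 in SNI, SE 0.060, adjusted p = 9.71e-07, and 0.89 in SNI + G15, adjusted p = 8.37e-06, quasi-likelihood test of edgeR). Slc3a2, the heavy chain of amino acid exchangers, was higher by 0.11 in SNI. Mtap and Mri1 of methionine salvage were lower in SNI (-0.36 and -0.44), as were the lysosomal polyamine exporter Atp13a2 (-0.16) and Dohh (-0.22), which completes the hypusine of eIF5A. The synthesis genes Amd1 and Sms, the cationic amino acid transporter Slc7a1 and the antizyme inhibitor Azin1 did not pass, with log2 fold changes of -0.025, -0.01, -0.0095 and 0.13 in SNI against sham. Relative to SNI, Eif5a was higher in SNI + G15 (0.13, adjusted p = 0.0446), and Mtap (-0.25, adjusted p = 0.0392) and Eif5a2 (-0.17, adjusted p = 0.0434) were lower. The peroxisomal oxidase Paox, which acts on the acetylated products of Sat1, was at 0.12 (adjusted p = 0.232), and the antizyme Oaz1 was at 0.24 (adjusted p = 0.063). Against sham, 3 were higher and 4 lower in SNI + G15, with Mtap at -0.63.

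Of the arginine list, 20 of 22 genes were tested, and 3 were higher and 4 lower in SNI than in sham (median 0.011). Ass1, argininosuccinate synthase, which rebuilds arginine from citrulline, had FPKM values of 66.81, 73.05 and 71.45 in sham, 35.53, 34.01 and 35.28 in SNI, and 38.29, 38.01 and 39.08 in SNI + G15. Both injured groups lay far below sham (log2 fold change -1.05 in SNI, SE 0.047, adjusted p = 4.48e-08, and -0.92 in SNI + G15, adjusted p = 1.13e-06, quasi-likelihood test of edgeR). Pycr1, a proline synthesis enzyme, was lower in SNI at -0.90 (adjusted p = 0.000399), as were Gatm (-0.31) and Aldh4a1 (-0.28). Nos1, the neuronal nitric oxide synthase and another user of arginine, was higher in SNI at 0.63 (adjusted p = 6.98e-05), with the arginine exchanger Slc7a6 at 0.47 and Ddah1 at 0.31. Between SNI + G15 and SNI, 3 were higher and none was lower, among them Gatm, of creatine synthesis, at 0.28 (adjusted p = 0.0134) and Ddah2 at 0.23 (adjusted p = 0.0436). Against sham, 6 were higher and 3 lower in SNI + G15. Among the list genes named, the estimated counts of Slc15a3, Aldh6a1, Ehhadh, Sms, Slc7a1, Eif5a and Nos1 were off whole numbers by more than 0.02 reads in 9 of 9 libraries, and those of Cth, Slc6a13 and Gatm in 8, so that they rest on reads divided with other features. Those of Slc36a2 were off by more than that in 1 library and those of Slc36a1 in none.

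**Figure D5:**
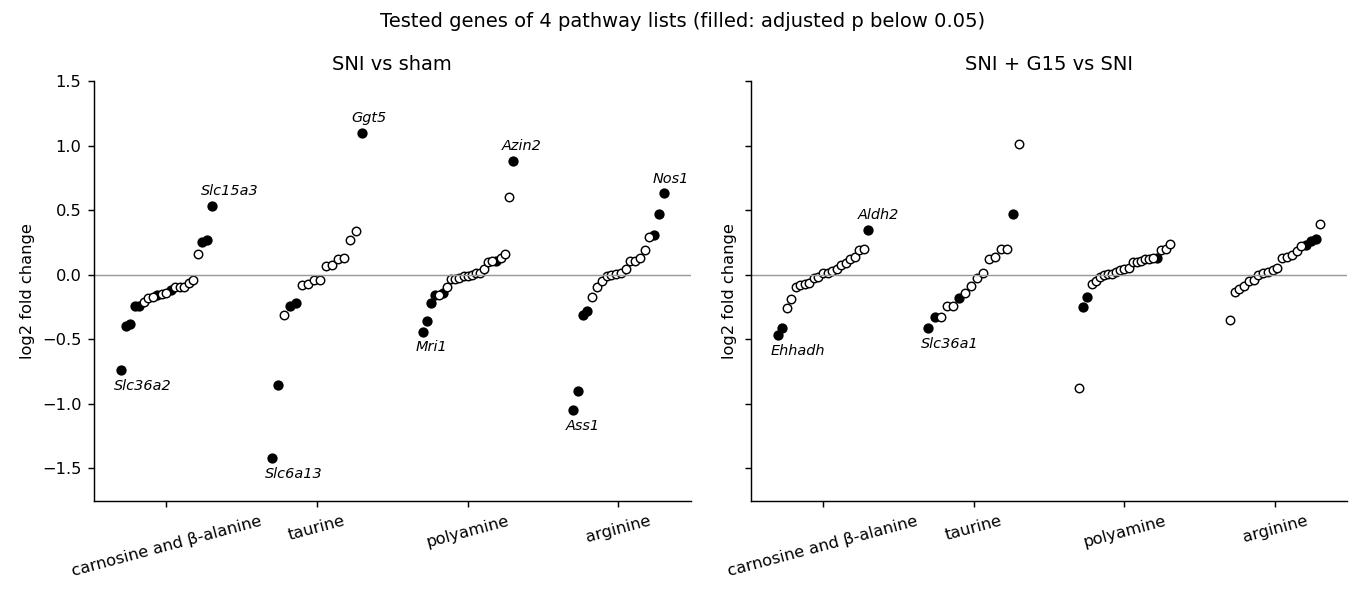
Log2 fold changes (vertical axis) of the tested genes of the 4 lists, on the left for SNI against sham and on the right for SNI + G15 against SNI, ordered within each list; filled points had an adjusted p below 0.05, and the lowest and highest gene of a list is named where it was called. Ggt5 (1.10) and Azin2 (0.88) stood highest and Slc6a13 (-1.42) and Ass1 (-1.05) lowest after injury, and the called changes with G15 lay between -0.47 and 0.47.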

How the data were processed

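DRG RNA was sequenced as paired reads in 9 libraries, 3 each of sham, SNI and SNI + G15. The authors deposited FPKM values, scaled to transcript length and library size, with the gene FPKM being the sum over transcripts. The authors also deposited estimated counts per gene and transcript, which were not normalized and need not be whole. The aligner and counter are not given in the sources used here. The submitters' processing notes name the mouse builds GRCm38 and mm10, whereas the gene and transcript identifiers are of rat, so no coordinates of the deposited values are given. The labels' extraction protocol names macrophages, while their tissue field gives DRG. The columns named as a control were read as the sham group, which the remaining column names do not cover.

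After rounding, the counts entered the quasi-likelihood test of edgeR 4.0.16 with TMM scaling (R 4.3.3), and only the libraries of the compared groups were fitted. The 14305 genes that reached an FPKM of 1 in any library were tested, with Benjamini-Hochberg adjustment over all of them. Standard errors were taken from the fold change and F statistic. The paper's methods name DESeq2, which was an alternative (1.42.0) beside limma 3.58.1, other scalings, other filters, a joint fit of the 9 libraries, a block for replicate number, and omission of each replicate. Ratios and transcript shares were tested with two-sided exact permutation tests (scipy 1.17.1, Python 3.11.15). Library totals of at least 18484557 reads set the counting precision, which does not cover reads divided between similar genes.

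The 10 genes and all lists were chosen with earlier results of these data known. Named list genes were up to 4 called genes per direction, list and comparison with the smallest adjusted p; 1 gene that this rule selects is not reported here. The like genes were the 2 with the highest r for each of the 10. Other genes named, such as Arg2, Amd1, Sms, Slc7a1, Azin1, Paox and Oaz1, were added for their role, and LOC100912604 was chosen after its values were seen. Promoters are from RefSeq (GRCr8), matched by gene ID. Deposited TPM values, averages, plotting values and principal components were not used.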

Additional observations from a re-analysis of the deposited data

How the results depend on the processing

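Of 483 recomputed log2 fold changes of the 10 genes, 445 kept their direction and their side of the threshold, 19 fell short of it, 16 newly passed it and 3 changed sign. The changes of sign were Csad in SNI + G15 against SNI, which ran from -0.017 to 0.16 as replicates were left out, and Srm summed with LOC100912604, which gave 0.051 in SNI + G15 against SNI and 0.37 in SNI + G15 against sham; the sum also turned the Smox to Srm ratio of SNI + G15 against sham to -0.039. The calls lost were Srm (9), Arg1 (6) and Slc6a6 (4), all in SNI + G15 against SNI; the cause was not tested. Leaving out replicates moved the genes called in SNI + G15 against SNI to between 893 and 2333, the 10 genes' calls to between 3 and 5 and the list genes' calls, with Slc36a1 of 2 lists counted in each, from 13 to between 3 and 14, and the non-overlapping transcript shares from 13 to between 15 and 21, since fewer libraries overlap less readily. With all genes of at least 1 count, 8 list genes were called in that comparison; the cause was not tested. No pairing of the libraries by replicate number was seen, as 0 of 9 correlations of same-numbered deviations exceeded 0.1 (-0.125 to 0.0923). Low correlations cannot exclude that same-numbered libraries were handled together. With the replicate number as a block, SNI + G15 against SNI gave 1292 called genes and 5 called list genes, and Arg1 was not called (adjusted p = 0.0636). Depth was alike between libraries, and division of reads between similar genes limits Srm, Slc6a6 and Csad.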
